A study of Mus musculus with 797 samples.

Results

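AiE0450h is one of the AAV vectors whose reporter-positive nuclei were sorted one by one from mouse brain, and the nuclei described here are its GABAergic nuclei, set beside those of the other vectors. A nucleus was taken when its library belonged to the larger of the library sets, it had at least 50000 reads and at least 1000 genes with a read, its Gad1 and Gad2 reads summed to at least 10 CPM (counts per 1e6 reads of the nucleus), and Slc17a7 was under 10 CPM. The rule gave 26 AiE0450h nuclei and 181 nuclei of 9 other vectors with at least 10 each, 207 of the 797 labelled nuclei in all. The other vectors were AiE0390m (22 nuclei), AiE0452h (20), AiE0475m (17), AiE0600m (25), AiE0682h (21), AiE0743m_3xC2 (15), CMV (19), DLX2.0 (22) and hI56i (20), and each was given the same weight. A further 12 GABAergic nuclei belonged to vectors with fewer than 10 and were left out.

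All groups shared the mouse strain (C57Bl/6J), the capsid PHP.eB, the reporter H2B-SYFP2, a histone-tagged yellow protein that lights up nuclei, the dose of 5e11 vector genomes per mouse and a wait of 3 to 4 weeks. They differed in the element that drove the reporter: an AiE enhancer, the viral promoter CMV, or DLX2.0 and hI56i, elements in use for forebrain GABAergic neurons. Every nucleus carried the label striatum. No label tells which animal a nucleus came from, so each vector counts as 1 sample, and vector, animal and sort cannot be told apart. The question put to the data was which GABAergic nuclei the sort for AiE0450h yielded, and whether their RNA differed from that of GABAergic nuclei sorted with other vectors.

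Gad1 and Gad2 encode the enzymes that make GABA, the main inhibitory transmitter of the forebrain, and Slc17a7 encodes a vesicular glutamate transporter of excitatory neurons. Forebrain interneurons come mainly from the medial ganglionic eminence (MGE), which gives Pvalb and Sst cells through the factors Lhx6 and Sox6, and from the caudal ganglionic eminence (CGE), which gives Vip cells and others that express Adarb2, Prox1 or Htr3a. Striatal principal cells, the spiny projection neurons, are GABAergic too and are known by Ppp1r1b, Drd1, Drd2 and Adora2a.

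The values that chose the nuclei are given as a description. Of 32 AiE0450h nuclei in the library set, 1 had too few genes and 31 passed on depth. Of these, 26 were taken, 1 had Slc17a7 alone, 3 had both kinds of transcript at 10 CPM or more and 1 had neither. The summed Gad1 and Gad2 level in the 26 nuclei was 62.9 CPM at the lowest, 1475 at the median and 3096 at the highest, and Slc17a7 was at 0 in all 26. The 5 nuclei outside the rule had a summed Gad level of 0 in 2 nuclei and of 332, 1288 and 2257 CPM in the others, and those 3 were left out for their Slc17a7 reads. No nucleus therefore lay close to the limit of 10 CPM: the 2 lowest taken were at 62.9 and 72.5 CPM, and the nearest outside were at 0. Gad1 was unread in 1 of the 26 and Gad2 in 9.

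Depth in the AiE0450h nuclei was 126293 reads at the lowest, 285504.5 at the median and 422363 at the highest. The medians of the other vectors ran from 174863 (AiE0682h) to 384002.5 (hI56i). The median number of genes with a read was 2908.5, against 2742 to 3388, and after each nucleus was thinned to 50000 reads it was 2593, against 2479 to 3000. AiE0450h thus lay within the other vectors in depth and in genes per nucleus. No 2 nuclei had identical counts.

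Other transcripts of GABAergic neurons, which the rule did not use, were present. Erbb4, a neuregulin receptor of interneurons, was read in 15 of 26 nuclei. Slc32a1, the vesicular GABA transporter, was read in 9 nuclei, at 2.72 to 49.4 CPM. The 11-gene GABAergic list also holds Gad1 and Gad2, so its mean was partly set by the rule and is given as a description. The list had a mean log2(CPM+1) of 3.84 ± 1.15 (SD over 26 nuclei), at the low end of the range of the other vectors' means, 3.83 (DLX2.0) to 4.41 (CMV). Its member Dlx5, a homeobox factor of GABAergic precursors, was read in 2 of 26 nuclei against 27.3% of nuclei averaged over the other vectors (8 to 45.5%). The other Dlx genes of the list did not share this. Dlx1 was read in 11 nuclei, Dlx2 in 3, Dlx6 in 11 and Dlx6os1 in 13, all with mean levels within the other vectors' range.

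The striatal label was checked against markers of striatal cells. Drd2, Adora2a, Ppp1r1b, Gpr6 and Isl1 had 0 reads in the AiE0450h nuclei, and 0 of 26 nuclei allows a share of up to 11.5%. Drd1 was read in 2 nuclei. Pde10a, which other neurons also express, was read in 17. Of the other genes of the spiny projection neuron list, Rgs9 was read in 3 nuclei, Adcy5 in 4 and Foxp1 in 9. Their mean levels lay within the range of the other vectors. Of the 12 genes of the spiny projection neuron list, 7 were unread, and the list's mean of 0.79 equalled that of the other vectors to the second decimal. Chat, the acetylcholine-making enzyme of cholinergic interneurons, was at 0, as were Nkx2-1 and Chodl. Of the principal-cell markers named earlier, Ppp1r1b, Drd2 and Adora2a were thus not detected, and Drd1 was read in 2 nuclei.

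Nuclei were placed in gates by counting genes at 10 CPM or more. A nucleus with more genes of the 5-gene MGE list (with Lhx6, Sox6, Nkx2-1 and Satb1 among its genes) than of the 5-gene CGE list (Adarb2, Prox1, Nr2f2, Sp8, Htr3a) was called MGE-type and the reverse CGE-type; MGE-type nuclei were Sst-gated with Sst at 10 CPM or more and Pvalb-gated with Pvalb but not Sst at that level. Of the 26 AiE0450h nuclei, 18 were MGE-type (69.2%, exact Clopper-Pearson 95% interval 48.2 to 85.7), 6 were CGE-type (23.1%, 9.0 to 43.6) and 2 had no gene of either list. The MGE-type nuclei comprised 11 Sst-gated (42.3%, 23.4 to 63.1), 6 Pvalb-gated (23.1%, 9.0 to 43.6) and 1 other. Intervals here and below cover counting error only, and in 5 of the 26 nuclei the counts of the 2 lists differed by 1 gene, so that 1 gene could move them.

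**Figure D1:**
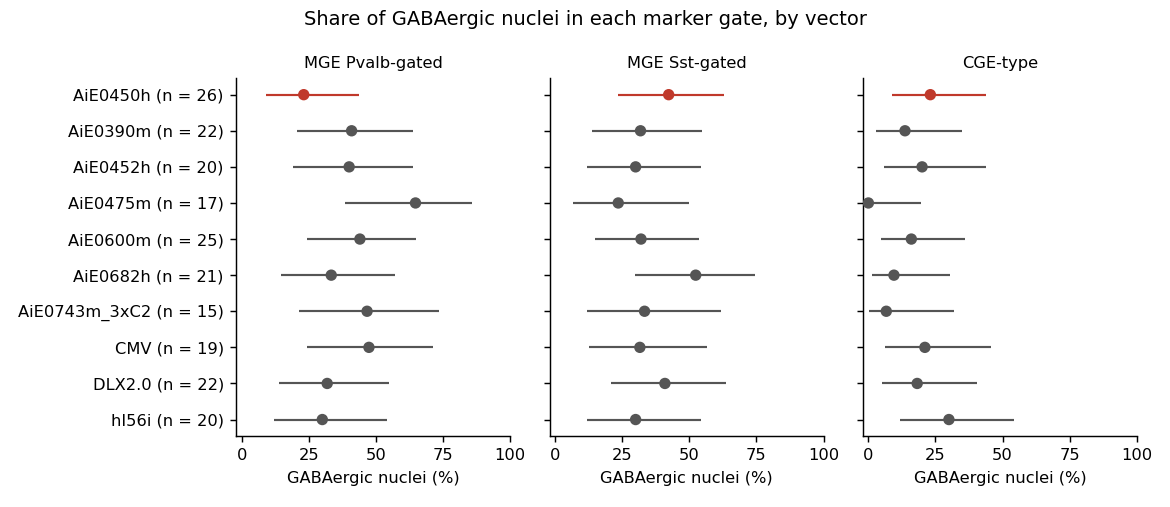
Share of GABAergic nuclei in 3 marker gates (x axis, percent of the vector's GABAergic nuclei) for AiE0450h (red) and 9 other vectors (grey); lines are exact Clopper-Pearson 95% intervals and n is the number of nuclei. The Pvalb-gated share of AiE0450h, 23.1%, is the lowest point of its panel, and every interval overlaps its interval.

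The Pvalb-gated share was lower than in each of the 9 other vectors, which ran from 30% (hI56i) to 64.7% (AiE0475m) with a mean of 42.1% ± 10.6 (SD, n = 9 vectors). The difference of -19.0 percentage points was 1 sample against 9 and had no test, and the interval of AiE0450h overlapped that of every other vector. The share also depended on the MGE list. The 2 AiE0450h nuclei with no gene of either list had Pvalb at 1107 and 126 CPM and no Sst read. They missed the Pvalb gate only for want of an MGE list gene. Pvalb was read in 50% of all AiE0450h nuclei, within the 40 to 70.6% of the other vectors. The MGE-type share was also below all 9, whose mean was 81.7% ± 9.56 and whose lowest was 70%. At a gate of 50 CPM, however, and with summed Gad1 and Gad2 of at least 100 CPM, it lay above that of 2 vectors, while the Pvalb-gated share was still below all 9.

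The Sst-gated share of AiE0450h was above that of 8 of 9 vectors and below that of AiE0682h (52.4%). For the CGE-type share the count was likewise 8 of 9, with hI56i higher at 30% and AiE0475m at 0 of 17 nuclei. The mean level of the 10-gene Sst list, 1.42, was by contrast below that of 8 of 9 vectors. The nuclei also differed in sex-linked reads. Xist, read in cells of females, was found without Y-linked reads in 5 AiE0450h nuclei, Y-linked genes without Xist in 16, neither in 5 and both in 0, so the nuclei came from at least 2 animals. Of the other vectors, 5 had no nucleus with Xist reads. Among nuclei with Y-linked and no Xist reads (16 of AiE0450h and 134 of 7 other vectors with at least 10) the CGE-type share was 12.5%, against a mean of 13.6%, and the Pvalb-gated share was 31.3%, still below all 7. The part of sex or animal in the shares was not tested.

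**Figure D2:**
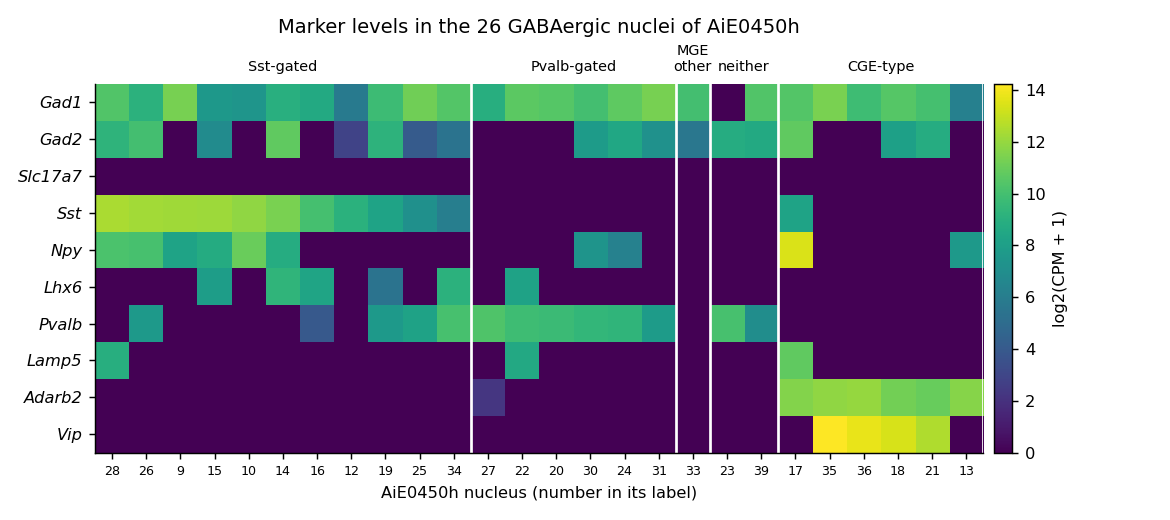
Level of 10 marker genes (rows; colour is log2(CPM + 1)) in each of the 26 AiE0450h nuclei (columns, by the number in the label), grouped by gate. The 4 nuclei with Vip reads all carry Adarb2 and lack Sst, Lhx6 and Pvalb, and Slc17a7 is dark in every column because the rule required it to be low.

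Pvalb, a calcium-binding protein of fast-spiking interneurons, was read in 13 of the 26 nuclei, at 15 CPM at the lowest, 643 at the median and 1280 at the highest among these. Its mean log2(CPM+1) of 4.28 ± 4.53 lay within the other vectors' means, 3.47 (hI56i) to 6.34 (AiE0475m). Of the other Pvalb list genes, Kcnc1, a fast potassium channel subunit, was read in 24 nuclei, Kcnc2 in 15, Tac1 in 7, Cox6a2 in 6 and Pthlh in 5, all with mean levels within the range of the other vectors. In edgeR's quasi-likelihood test of the reads summed per vector, Pvalb differed by 0.05 ± 0.44 (log2 fold change ± SE, Benjamini-Hochberg adjusted p = 0.998).

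Sst, the somatostatin precursor, was read in 12 nuclei, at 67.0, 1884 and 5620 CPM (lowest, median and highest among these). Its mean level of 4.66 ± 5.35 was within the others' range, 2.55 (AiE0475m) to 6.13 (AiE0682h). In summed reads Sst had a log2 fold change of -0.31 ± 0.64 (adjusted p = 0.998, edgeR's quasi-likelihood test). Npy, neuropeptide Y, was read in 10 nuclei, of which 7 also had Sst reads. Chodl and Nos1, which mark the long-range type of Sst cell, had 0 reads. A single nucleus can hold reads of both Pvalb and Sst: 5 of 26 did (19.2%), and the share in the other vectors ran from 4.55 to 23.8%.

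Lhx6, the MGE factor, was read in 6 nuclei with a median of 310 CPM among these, and its mean of 1.86 lay inside the range of 1.27 to 3.22. Sox6 was read in 14 nuclei and Satb1 in 15. Lamp5, a marker of neurogliaform and related cells, was read in 3 nuclei, at 385, 485 and 1758 CPM, and its mean of 1.09 lay inside the range of 0.48 to 2.75. Adarb2, an RNA-editing family member that marks CGE cells, was read in 7 nuclei with a highest value of 4018 CPM. Its mean of 2.75 was below that of hI56i (3.07) and above the rest.

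Vip, vasoactive intestinal peptide, was the class marker whose level stood outside the other vectors. It was read in 4 AiE0450h nuclei, at 6042, 10771, 14023 and 19441 CPM, and in none of the remaining 22. The share of nuclei with a Vip read was 15.4% (95% interval 4.36 to 34.9), against 0 to 10.5% in the other vectors, where 9 of 181 nuclei had one; CMV (10.5%, 1.3 to 33.1) and DLX2.0 (9.09%) came next. The mean level was 2.08 ± 4.97, above the highest other vector (1.11, CMV), but by summed reads CMV was higher, with 2604 CPM against 2393 CPM for AiE0450h. edgeR's quasi-likelihood test gave Vip a log2 fold change of 2.30 ± 2.01 (adjusted p = 0.878). The higher mean level thus rested on 4 nuclei and did not exceed the spread between vectors in the test.

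The 4 Vip nuclei were alike in other transcripts. All 4 had reads of Adarb2, of Crh, the precursor of corticotropin-releasing hormone, and of Rgs12, a regulator of G-protein signalling. Htr3a, the ionotropic serotonin receptor, Tac2, a tachykinin precursor, and Cxcl14, a chemokine, were each read in 3 of 4. None had reads of Pvalb, Sst, Lhx6 or Sox6. The 9 nuclei of other vectors with a Vip read spanned a wider range of levels, with 6 at 221 to 1377 CPM and 3 at 9771 (CMV), 36562 (AiE0600m) and 51082 CPM (DLX2.0). Of the 9, 4 had Adarb2 reads, 4 Htr3a, 3 Tac2 and 2 Crh, while 4 had Pvalb and 4 had Sox6 reads. The difference between the 2 sets of nuclei was not tested.

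Several genes of the Vip, CGE and Lamp5 lists had mean levels above all 9 other vectors; they are named here after their values were seen, and all were read too seldom to be among the 4223 genes counted below, of which 7.93% lay above all 9. Of the 8 Vip list genes 4 lay above and 4 within the range, of the 5 CGE genes 2 and 3, and of the 8 Lamp5 list genes 1 and 7; in 4 of the Lamp5 list genes, Lamp5, Reln, Ndnf and Sv2c, the difference was negative. Tac2 had 1.65 against a highest other mean of 1.10, Crh 1.74 against 1.18, and Cxcl14 1.59 against 1.31. Prox1, a CGE factor, had 0.97 against 0.50, Htr3a 1.19 against 1.10 and Rgs12, a gene of the Lamp5 list, 1.63 against 0.86. Without the nucleus with the most reads of the gene, the means of Cxcl14 (1.24) and Htr3a (0.78) fell within the others' range and that of Prox1 was 0.60. Here and below, the other vectors kept their top nuclei, so leaving it out lowers AiE0450h alone. In AiE0450h, 1 nucleus held 81.5% of the Prox1 reads and 70.7% of the Htr3a reads. None of the 6 passed edgeR's test. The mean over the 8-gene Vip list was 1.45 ± 2.18 against 0.39 to 1.07, and over the 5-gene CGE list 1.05 ± 2.12 against 0.02 to 0.94. Within MGE-type nuclei alone, Tac2 was unread in AiE0450h and in the other vectors. The 4 AiE0450h nuclei with Vip reads were all CGE-type, so this restriction removed them. The mean level of Vip then differed from the others' mean by -0.32.

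**Figure D3:**
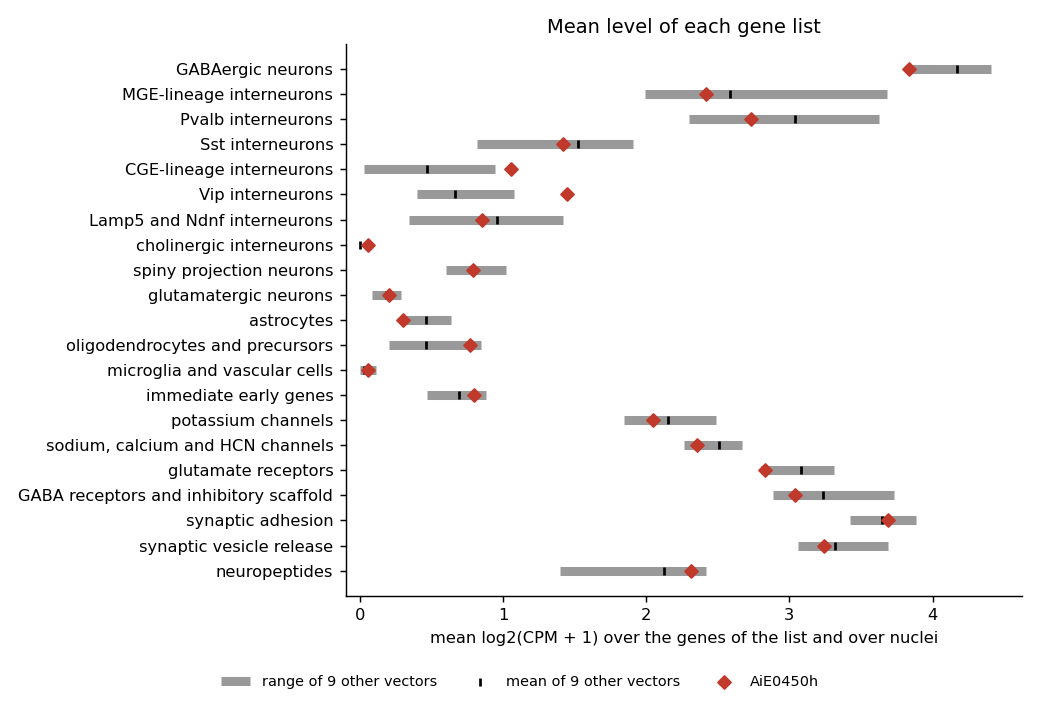
Mean log2(CPM + 1) over the genes of each list and over nuclei (x axis) for AiE0450h (red diamonds), with the range (grey bars) and mean (black ticks) of the 9 other vectors. The Vip and CGE lists of AiE0450h, at 1.45 and 1.05, lie beyond the bars, the cholinergic list does so through 1 gene read in 1 nucleus, and the other lists lie within them. The GABAergic and glutamatergic lists include genes that chose the nuclei.

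Over all genes, few differences exceeded the spread between vectors. Reads were summed per vector, and the sum of AiE0450h (7196590 reads) was tested against the 9 other sums with edgeR's quasi-likelihood test, in which the lone sum is assumed to vary like the others. Of 15973 genes tested, 0 (0.0%) were higher and 2 (0.0125%) were lower at an adjusted p below 0.05. At an unadjusted p below 0.05, 245 were higher (1.53%) and 334 lower (2.09%). The median log2 fold change over all genes was -0.36, and 3628 of the genes tested had 0 reads in AiE0450h, so each fold change is read beside that median. limma on the mean levels of 4223 genes also called 0 in each direction (97 higher, 2.3%, and 47 lower, 1.11%, unadjusted), while DESeq2 called 2 higher (0.0125%) and 331 lower (2.07%), of which 214 had 0 reads in AiE0450h.

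Syndig1 (ENSMUSG00000074736, mm10 chromosome 2, 149829211 to 150004392), a membrane protein of excitatory synapses that binds AMPA receptors, had 0 reads in the 26 AiE0450h nuclei. It was read in 18% of nuclei averaged over the other vectors, from 13.6% (DLX2.0) to 26.7% (AiE0743m_3xC2), and 0 of 26 nuclei allows up to 11.5%. The summed level in the other vectors was 76.6 CPM on average (44.7 to 112), at least 184-fold higher than the 0.417 CPM that 3 reads would give in AiE0450h (adjusted p = 0.027, edgeR's quasi-likelihood test). That bound covers counting error only and takes PCR copies as separate reads. No other vector was at 0, so the groups did not overlap in summed reads, the measure whose test picked the gene. Without AiE0452h, AiE0743m_3xC2 or DLX2.0 the adjusted p was 0.063, 0.058 and 0.066, and with nuclei thinned to 50000 reads it was 0.137. Over all the settings tried it ran from 0.000113 (DESeq2) to 0.137.

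Slc5a6 (ENSMUSG00000006641, chromosome 5, 31036036 to 31048924), the sodium-dependent multivitamin transporter, had 1 read in 1 AiE0450h nucleus. In the other vectors it was read in 25.4% of nuclei on average (20 to 35%), with summed levels of 34.2 to 146 CPM. Their mean of 85.3 CPM was 614 times that of AiE0450h (95% counting interval of the single read, 110 to 24232; adjusted p = 0.035, edgeR's quasi-likelihood test). The call was lost when any of AiE0390m, AiE0452h, AiE0743m_3xC2, CMV, DLX2.0 or hI56i was left out (adjusted p 0.055 to 0.074) and after thinning (0.137), and over all settings the adjusted p ran from 2.66e-05 (DESeq2) to 0.192. In the 4 AiE0450h nuclei of the other library set, Syndig1 was read in 1, with a difference in mean level of 0.56 in the opposite direction, and Slc5a6 in 0. Among MGE-type nuclei alone, a setting added after the data were seen, edgeR called 0 genes higher and 3 lower (200 and 468 unadjusted): Syndig1, Hspbp1 and Poldip2.

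Because 1 nucleus can carry most reads of a gene, mean levels per nucleus were also compared. For genes read in at least 30% of nuclei on either side, the mean of log2(CPM+1) over AiE0450h nuclei was set against the same mean in each other vector. Of 4223 such genes, 229 (5.42%) were more than 1 higher than the others' average and above all 9, and 280 (6.63%) were more than 1 lower and below all 9. The counts are a description with no test, and the either-side filter feeds them: 108 of the 229 were read in under 30% of the others' nuclei, and 162 of the 280 in under 30% of AiE0450h nuclei. The nuclear RNAs Malat1 (17.25 against 16.69 to 17.14) and Rian (8.57 against 6.13 to 8.40) also had means above all 9 vectors, and their part in the counts was not tested. With a pseudocount of 10, which gives less weight to whether a gene was read at all, the numbers were 56 and 63.

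**Figure D4:**
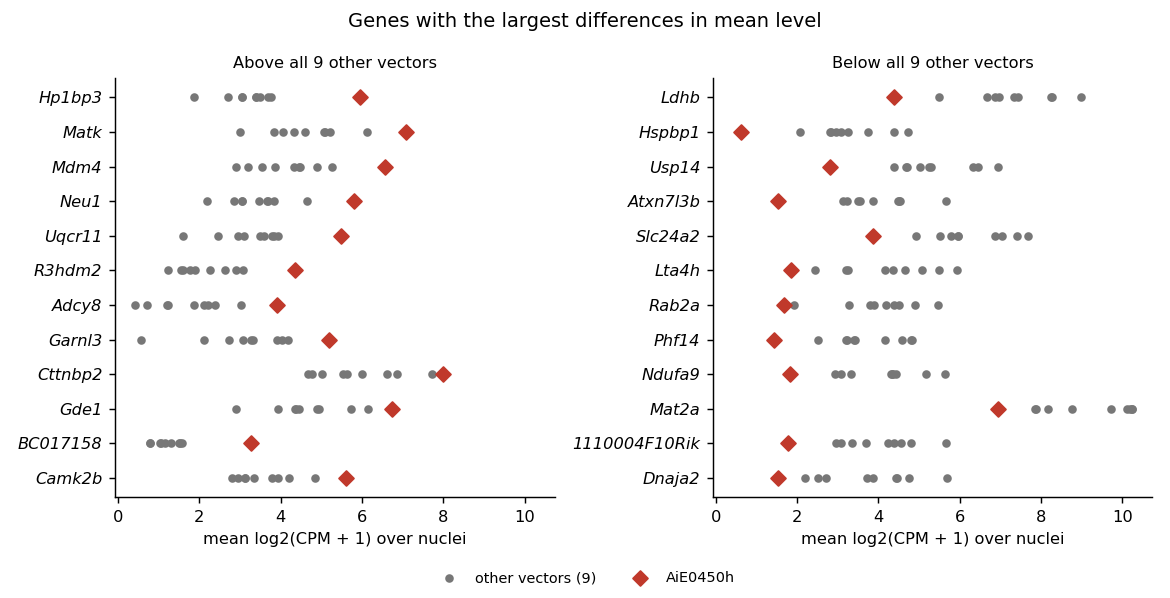
Mean log2(CPM + 1) over nuclei (x axis) of the 12 genes with the largest differences in each direction, for AiE0450h (red diamonds) and each of 9 other vectors (grey points). The genes were chosen for lying outside the grey points; the gap to the nearest vector is widest for Hp1bp3 in the left panel and narrow for Cttnbp2 and Rab2a.

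The 12 genes with the largest positive differences were Hp1bp3, Matk, Mdm4, Neu1, Uqcr11, R3hdm2, Adcy8, Garnl3, Cttnbp2, Gde1, BC017158 and Camk2b, with differences of 2.05 to 2.79. With a pseudocount of 10 the differences were 1.04 to 1.62. In edgeR's test 5 of the 12 had an unadjusted p below 0.05, with a lowest adjusted p of 0.617. In summed reads 8 of the 12 were above all 9 vectors, and Uqcr11, R3hdm2, Garnl3 and Camk2b lay within their range. Adcy8 and BC017158 were read in under 30% of the others' nuclei, so they were eligible through AiE0450h alone. In the 4 nuclei of the other library set 5 of the 12 differed in the opposite direction.

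Hp1bp3 (chromosome 4, 138216296 to 138244683), a chromatin protein that binds heterochromatin protein 1, was read in 21 of 26 nuclei with 95.8 CPM at the median and 810 at the highest. The mean level was 5.95 ± 3.19, against 1.86 (DLX2.0) to 3.76 (AiE0600m). The other vectors had reads in 27.3 to 54.5% of nuclei, below the 80.8% of AiE0450h. In summed reads AiE0450h was at 219 CPM and the others at 57.6 to 125 CPM, a log2 fold change of 1.41 ± 0.47 (adjusted p = 0.617, edgeR's quasi-likelihood test).

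Matk (chromosome 10, 81252935 to 81263365), a tyrosine kinase that inhibits Src family kinases, was read in 21 nuclei with a median of 456 CPM. Its mean was 7.08, against 3.00 to 6.14. Mdm4, an inhibitor of p53, was read in 22 nuclei and had a mean of 6.57, against 2.91 to 5.27. Camk2b, the beta subunit of calcium/calmodulin-dependent kinase II, was read in 21 nuclei, with a mean of 5.62 against 2.80 to 4.84. In mean level each of the 3 lay above all 9 vectors, for which the genes were picked, with the lowest nucleus at 0 CPM. In summed reads Matk and Mdm4 did so too, while Camk2b, at 216 CPM, lay within the others' 117 to 220 CPM.

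Neu1, the lysosomal sialidase, had a mean of 5.80 against a highest other mean of 4.65, and Uqcr11, a subunit of respiratory complex III, 5.49 against 3.93; in summed reads Uqcr11, at 136 CPM, was within the others' 29.6 to 138 CPM. Adcy8, a calcium-stimulated adenylyl cyclase, was read in 14 nuclei and had 3.91 against 3.03. Cttnbp2, a cortactin-binding protein of dendritic spines, was read in 25 of 26 nuclei. Its mean of 7.99 ± 2.02 was close to the highest other vector, 7.73 (AiE0452h). Gde1, a glycerophosphodiester phosphodiesterase, had a difference of 2.09 in all nuclei and of 0.57 in nuclei with Y-linked and no Xist reads.

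The 12 most negative differences, -2.28 to -2.98, were those of Ldhb, Hspbp1, Usp14, Atxn7l3b, Slc24a2, Lta4h, Rab2a, Phf14, Ndufa9, Mat2a, 1110004F10Rik and Dnaja2. They were read in 2 to 18 of the 26 nuclei. With a pseudocount of 10 the differences were -1.24 to -2.03. In edgeR's test 8 had an unadjusted p below 0.05 and the lowest adjusted p was 0.445. In summed reads 10 of the 12 were below all 9 vectors, and Mat2a and Dnaja2 lay within their range. For 8 of the 12, under 30% of AiE0450h nuclei had a read, so they were eligible through the other vectors alone. In the 4 nuclei of the other library set 3 of the 12 differed in the opposite direction.

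Ldhb (chromosome 6, 142490249 to 142507957), the B subunit of lactate dehydrogenase, was read in 14 of 26 nuclei, with a median of 54.0 CPM over all 26. Its mean of 4.39 ± 4.38 was below all other vectors, 5.50 (DLX2.0) to 8.97 (AiE0475m), where 63.6 to 94.1% of nuclei had a read. The summed level was 218 CPM against 342 to 794 CPM, a log2 fold change of -1.33 ± 0.41 (adjusted p = 0.617, edgeR's quasi-likelihood test). Ldhb was picked for a mean level below all 9 vectors, where 378 of the 4223 genes (8.95%) lay. Its summed level was below all 9 as well, while single AiE0450h nuclei ran from 0 to 994 CPM.

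Hspbp1, a partner of heat shock chaperones of the Hspa family, was read in 2 nuclei, 1 of which held 79.6% of its reads. It was read in 25 to 59.1% of nuclei of the other vectors, and its mean of 0.63 was below their lowest of 2.08 (hI56i). Among MGE-type nuclei alone it was called by edgeR's quasi-likelihood test at a log2 fold change of -4.77 (adjusted p = 0.044); in all nuclei the adjusted p was 0.445. In the 4 nuclei of the other library set 3 had a read of Hspbp1, and its difference from the other vectors was there 2.54, in the opposite direction. Mat2a, which makes S-adenosylmethionine, was read in 18 of 26 nuclei and in 80 to 100% of the others' nuclei.

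As background on 4 of the remaining genes, Usp14 is a proteasome-bound deubiquitinase, Dnaja2 a co-chaperone, Ndufa9 a subunit of respiratory complex I and Rab2a a GTPase of early secretory transport. Usp14 was read in 10 nuclei with a mean of 2.81, against 4.39 to 6.95, but 50.4% of its reads lay in 1 nucleus. Ndufa9 had a mean of 1.84 against 2.93 to 5.64, and Dnaja2 1.54 against 2.20 to 5.70. Slc24a2, a potassium-dependent sodium/calcium exchanger of neurons, was read in 13 nuclei and had 3.88 against 4.93 to 7.67. The mean of Rab2a, 1.67, was close to the lowest other vector, 1.94 (hI56i).

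None of the lists of neuronal genes held a gene called by edgeR's test, and the members named next were picked for lying outside the other vectors. Among all 4223 genes, 335 (7.93%) had a mean above all 9 other vectors and 378 (8.95%) below. Of 39 potassium channel genes, 20 were read often enough, 0 lay above and 3 below. Kcnab2, an auxiliary subunit, was read in 1 of 26 nuclei (116 CPM) against 23.8 to 58.8% of nuclei in the other vectors. Kcnq5, a subunit of the M-type current, was read in 2 nuclei. The list's median difference in mean level was -0.03, as it was over all 4223 genes.

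Among 26 sodium, calcium and HCN channel genes, 15 were read often enough and Cacna1a alone lay outside. Cacna1a, the pore of P/Q-type calcium channels, was read in 14 nuclei with a median of 3.81 CPM and a highest of 330 CPM. Its mean was 2.98 ± 3.23, below the 4.11 (DLX2.0) to 5.66 (AiE0452h) of the others, with a log2 fold change of -1.15 ± 0.55 (adjusted p = 0.878, edgeR's quasi-likelihood test). Scn1a, the sodium channel typical of interneurons, was read in 24 nuclei, with a mean of 8.28 within the others' range of 6.10 to 8.54. Hcn2 had 0.47 against 0.74 to 2.24 but was read too seldom to be counted.

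Of 26 vesicle release genes, 14 were read often enough, and 2 of these lay below the other vectors. Snap25, a membrane fusion protein of the synapse, was read in all 26 nuclei at 50.3, 1613 and 3563 CPM (lowest, median and highest). Its mean of 10.40 ± 1.37 was just under the others' 10.54 to 11.14. Unc13a, a vesicle priming factor, had 2.30 against 2.79 to 4.08. Cntnap2, a neurexin-family adhesion protein, was the member of 22 adhesion genes outside the range, with 7.64 against 5.99 to 7.55 (7.54 without its top nucleus); in summed reads it was within the others' range, as was Unc13a. No gene of the 13 GABA receptor and scaffold genes read often enough lay outside.

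Immediate early genes report recent activity or handling of cells. Fos was read in 8 nuclei, at 346 CPM at the lowest and 3426 at the highest of these, and its mean of 2.96 ± 4.57 was above the others' 0.12 (AiE0475m) to 2.68 (AiE0452h). Without its top nucleus, which held 48.9% of its reads, the mean of Fos was 2.61, within that range, and among MGE-type nuclei its difference was 0.82. Nr4a1 had a log2 fold change of 3.60 ± 0.61 in summed reads, with an adjusted p of 0.068 in edgeR's quasi-likelihood test. It was read in 5 nuclei, and 1 of them, at 5550 CPM, held 86.7% of its reads. Without the top nucleus the difference in its mean level was 0.17, and among MGE-type nuclei it was -0.14. Of the 4 Vip nuclei, 3 had Fos and 3 had Nr4a1 reads. The whole 19-gene list had a mean of 0.79, within the others' 0.47 to 0.88, and Egr2, Egr3, Nr4a2, Nr4a3 and Bdnf had 0 reads.

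Markers of other cells were given for each list. Mbp, the myelin basic protein, was read in 8 of 26 nuclei at up to 1221 CPM, and its mean of 2.59 was above the others' 0 to 2. Mobp, another myelin gene, was read in 4 nuclei (1.18 against 0 to 0.80). Mog, Sox10 and Pdgfra were at 0, so 3 of the 6 oligodendrocyte genes were read, and the list's mean of 0.77 was within the others' 0.20 to 0.85. The difference of Mbp from the others' mean was 1.52 in all nuclei and 1.5 among MGE-type nuclei. Of 11 glutamatergic genes 6 were unread, among them Slc17a7, which the rule required to be low. Of 6 astrocyte genes 4 were unread, and of 6 microglial and vascular genes 5. The list means were 0.20, 0.30 and 0.06 in that order, each within the range of the other vectors. The part of these transcripts in any result was not tested.

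Restricting the comparison to Pvalb-gated nuclei held the class closer to fixed but left 6 AiE0450h nuclei, against 6 to 11 in each other vector. edgeR's quasi-likelihood test of 13891 genes called 1 higher (0.0072%) and 8 lower (0.0576%), with a median log2 fold change of -1.52 over all genes. At an unadjusted p below 0.05, 185 were higher (1.33%) and 707 lower (5.09%). The genes lower were Lamtor3, Stx12, Suclg1, Tpp1, Trmt1, Dnaja2, Ly6e and Pgrmc1. In 7 of them AiE0450h had 0 reads in 6 nuclei, and Dnaja2 had 2 reads in 1 nucleus. The gene higher, Cdk5rap2, had 340 reads, all in 1 nucleus. None of the 9 was called in the comparison of all GABAergic nuclei, and Dnaja2 was also among the 12 most negative mean levels there.

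AiE0450h had 8 nuclei in the other library set, of which 4 passed the same rule. They were kept out of the comparisons, since the other vectors' values come from the larger set. Of the 4, 2 had Sst reads, 2 Lhx6, 1 Pvalb, 1 Vip and 1 Adarb2. Hp1bp3 was read in 3 and its difference from the other vectors was 3.82. Ldhb was read in 3, with a difference of -0.70. Of the 24 genes with the largest differences, 16 kept their direction in these 4 nuclei and 8 did not.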

How the data were processed

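The measurement was RNA of single sorted nuclei, 1 library each (SMART-Seq v4 with Nextera XT, per the labels' protocols). The authors deposited raw counts of reads for each gene and nucleus; no molecular identifiers were used, so PCR copies are included. Per the submitters' processing notes, STAR 2.7.2a and mm10 were used; how reads were counted (tool, annotation, strand, introns) is not given in the sources used here, so overlapping genes may share reads. Of 2501 columns, 797 were matched to samples and 1704 were not used. Symbols and positions came from GENCODE M21 by identifier (32158 of 32285 rows; the rest held 0.0931% of reads).

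Counts were scaled to CPM and, with a pseudocount of 1, to log2. Counts summed per vector were tested with edgeR 4.0.16 (TMM, filterByExpr, quasi-likelihood, Benjamini-Hochberg at 0.05) in R 4.3.3, with DESeq2 1.42.0 and limma 3.58.1 as alternatives. p-values measure only the spread between the vectors' sums, 1 per vector. Genes named were the 12 largest differences of mean level in each direction outside the other vectors' range, genes called by edgeR, and 6 class markers. Members and lists were chosen with earlier results of these data known. On simulated counts for this comparison (15975 genes), 1 of 80 genes changed by a factor of 2, 5 of 57 at 4 and 23 of 63 at 8 were called, and 3 of 15775 unchanged genes. The changed genes were drawn only from those with a mean over 10 CPM in the other vectors. Gad1, Gad2 and Slc17a7 were not tested. Doublets were not called. The labels name each library as a single nucleus, and whether any held more was not tested. Ddit3 was not in the table, and some list genes are not reported here.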

Additional observations from a re-analysis of the deposited data

Results flagged for a closer look

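Among the 9 other vectors, the Pvalb-gated share of AiE0475m, 64.7% of 17 nuclei, stood apart from the next highest (47.4%) by more than the limit of Dixon's test for 9 values. It was 1 of 34 values examined in this way (4 shares and the mean levels of 30 genes), and chance alone gives about 1 in 20 such values. The AiE0450h share was below all 9 vectors and also below the 8 without AiE0475m.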

How the results depend on the processing

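No paired analysis was possible because the numbers in the labels only name nuclei and each vector is 1 summed sample. In the edgeR comparison of all genes (0 higher, 2 lower), DESeq2 gave 2 higher and 331 lower. Leaving out the AiE0450h nucleus with the most reads of each gene gave 1 and 8, and Pvalb-gated nuclei gave 1 and 8. The top nucleus was left out of AiE0450h only, which lowers that side alone. The median log2 fold change was then -1.38, against -0.36 with all nuclei. Lower calls were 0 with limma, with thinning, and in nuclei with Y-linked and no Xist reads. Leaving out 1 vector gave 0 to 1 higher and 0 to 3 lower: 1 higher without AiE0475m, 0 lower without AiE0452h, AiE0743m_3xC2 or DLX2.0, and 1 lower without AiE0390m, CMV or hI56i. In Pvalb-gated nuclei (1 higher, 8 lower) these ranges were 0 to 1 and 4 to 19, with 16 lower without AiE0682h, 19 without hI56i, 4 without AiE0452h, AiE0475m or AiE0600m and 5 without AiE0743m_3xC2. The counts by mean level (229 above, 280 below) became 56 and 63 with a pseudocount of 10, 513 and 569 in nuclei with Y-linked and no Xist reads, 379 above in MGE-type nuclei, and 1041 and 1001 with the 4 nuclei of the other library set; without 1 vector they were 237 to 290 and 273 to 329. The CGE-type difference of 8.07 percentage points became -1.1 in nuclei with Y-linked and no Xist reads. With the 4 nuclei of the other set, 8 of the 24 genes reversed: Matk -0.89, Uqcr11 -1.33, Adcy8 -1.69, BC017158 -1.19, Camk2b -2.20, Hspbp1 2.54, Slc24a2 1.40 and 1110004F10Rik 1.99. The cause was not tested. The settings restricted to MGE-type nuclei or to nuclei with Y-linked reads were chosen after seeing the data. With 26 nuclei and 1 sum per vector, changes by a factor of 8 or less were mostly missed in simulated counts (23 of 63 called at 8). Only genes with a mean over 10 CPM were changed there, so genes below that level were not simulated as changed.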
